A study of Mus musculus with 108 samples.

Results

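Acinar cells make and secrete the digestive enzymes of the pancreas, and they were measured here cell by cell. Reg2-high cells were those with Reg2 at 300 TPM or more, 32 cells, and Reg2-low cells were those below 50 TPM, 54 cells. TPM is a share of each cell's transcripts, corrected for their length and scaled to a total of 1000000. The 22 cells between those thresholds were left out, so 86 cells were compared, and these 86 and 22 make up all cells of the series. Reg2 chose the cells, and its values are therefore a description and no finding. Next to the upper threshold, the first 2 cells inside had 391 and 458 TPM and the first 2 outside had 298 and 217 TPM. Next to the lower threshold, the first 2 cells inside had 49.8 and 48.53 TPM and the first 2 outside had 53.9 and 54.4 TPM.

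All cells, Reg2-high and Reg2-low, came from untreated male C57Bl/6 mice aged 12 weeks. The pancreas was digested with collagenase, islets were strained off, acini were dissociated with Accutase, and each picked cell was sequenced by a modified SMART-seq2 procedure, which reads full-length cDNA and has no molecular identifiers. The labels place every cell in 1 group and name no animal, plate or day. The cells are thus 1 sample, cells are not replicates, and differences between Reg2-high and Reg2-low cells carry no p-value and no standard error.

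Both groups followed runs of cell number. Of the 32 Reg2-high cells, 31 were among cells 49 to 91, 1 (cell 38) was among cells 1 to 48, and 0 were among the cells from 92 on. Of the 54 Reg2-low cells, 1 (cell 86) was among cells 49 to 91, 35 were among cells 1 to 48 and 18 were among the cells from 92 on. The bound after cell 48 came from an earlier analysis of these data that used Reg genes. The bound after cell 91 came from the deposited totals: all 21 cells from number 92 on had short totals, between 788380 and 990520 TPM, and the other 87 cells summed to about 1000000. What the cell number stands for is not given in the sources used here, so a Reg2 level, an animal, a collection day and a library batch cannot be told apart between the runs.

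**Figure D1:**
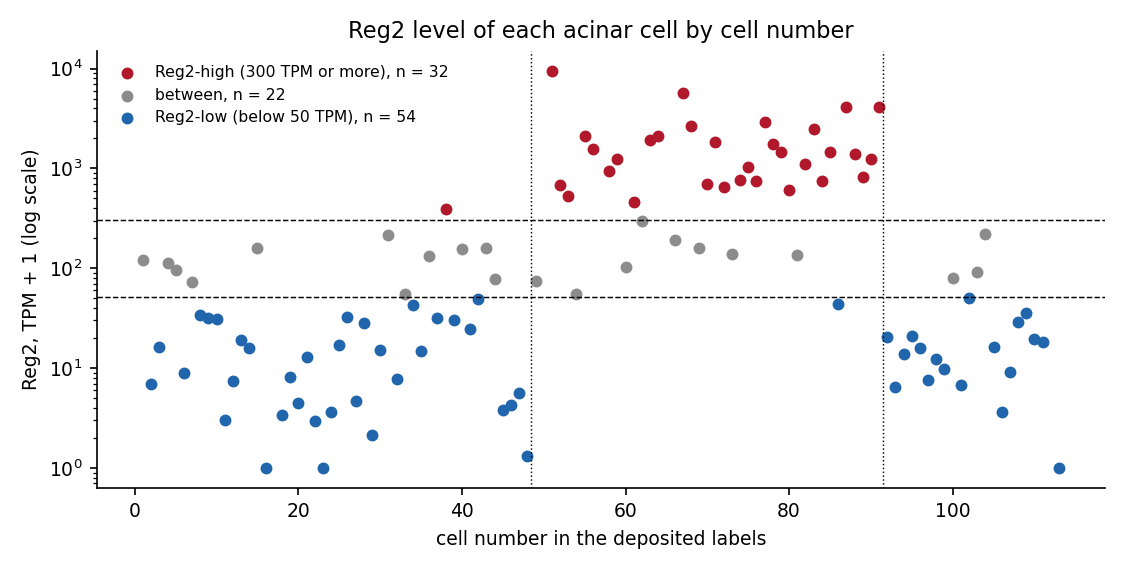
Reg2 of each cell of the series (vertical axis, TPM + 1, log scale) against the cell number in the labels. Dashed lines mark 300 and 50 TPM and dotted lines the bounds of the runs; 31 of 32 Reg2-high cells lie among cells 49 to 91, and 53 of 54 Reg2-low cells lie outside them.

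Reg proteins are small secreted proteins with a C-type lectin fold, made mainly by pancreatic acinar cells and gut epithelium. Several of them are strongly induced when the pancreas is injured or inflamed, in part by cytokines of the IL-6 family acting through the transcription factor STAT3, and Reg3b and Reg3g bind bacteria in the gut. In mice, all members but Reg4 sit side by side in 1 gene cluster.

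The promoters of Reg3b, Reg2 and Itih4 are shown, as 250 bases before and 50 after the gene start in RefSeq (build GRCm38.p6), because Reg2 chose the cells, Reg3b had the largest difference, and Itih4 was the only gene outside the family both higher by 1 or more and higher in 80% or more of cell pairs. This choice was made with the matches known. Capitals mark TTCNNNGAA, the core of a STAT binding motif. It reads the same on both strands, was the only motif searched and is found in 8.3% of all 32851 mouse promoters of that table. Reg3b, chr6:78370635-78370934, plus strand, has 1 match, starting 129 bases before the gene start. Reg2, chr6:78404905-78405204, plus strand, has 0. Itih4, chr14:30886226-30886525, plus strand, has 1, starting 51 bases before.
Reg3b: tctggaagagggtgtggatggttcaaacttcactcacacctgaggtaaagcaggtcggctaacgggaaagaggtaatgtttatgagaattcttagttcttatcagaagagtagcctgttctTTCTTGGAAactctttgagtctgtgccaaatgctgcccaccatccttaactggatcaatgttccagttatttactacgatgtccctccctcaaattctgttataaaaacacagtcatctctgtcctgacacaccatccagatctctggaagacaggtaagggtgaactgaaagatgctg
Reg2: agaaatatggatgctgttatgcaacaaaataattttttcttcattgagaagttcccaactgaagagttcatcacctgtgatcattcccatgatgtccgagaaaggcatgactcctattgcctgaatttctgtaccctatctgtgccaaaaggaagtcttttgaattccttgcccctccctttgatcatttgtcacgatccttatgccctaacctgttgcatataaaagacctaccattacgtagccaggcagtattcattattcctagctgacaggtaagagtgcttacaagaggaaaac
Itih4: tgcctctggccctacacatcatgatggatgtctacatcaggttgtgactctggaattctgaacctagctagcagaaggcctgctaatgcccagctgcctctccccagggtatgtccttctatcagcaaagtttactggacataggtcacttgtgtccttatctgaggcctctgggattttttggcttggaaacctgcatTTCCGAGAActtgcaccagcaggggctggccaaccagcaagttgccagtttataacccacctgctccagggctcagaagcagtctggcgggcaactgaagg
Of the 7 Reg genes with an entry, 2 have the motif, Reg3b and Reg3d. Of the 5 other genes looked up that have an entry, Itih4 has it, and Hspa1a, Smim24, Mt2 and Gal have 0 matches. A match is a run of letters and not a measured binding site.

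Acinar markers summed to a high level in both groups. Nr5a2, 1 of them, reached 1 TPM in only 7 of 32 Reg2-high and 14 of 54 Reg2-low cells. All 10 acinar markers were detected (1 TPM or more in at least 1 cell) in Reg2-high and in Reg2-low cells, and their summed level had a median of 317700 TPM (295000 to 348200) in Reg2-high cells and 302100 TPM (227100 to 339200) in Reg2-low cells. The 12 ductal markers summed to a median of 225.0 TPM (127.2 to 504.5) in Reg2-high and 214.9 TPM (125.2 to 568.9) in Reg2-low cells, most of it Clu and Muc1, which were detected in all 86 cells. Cftr and Onecut2, which define ducts, reached 1 TPM in 0 cells. Of the 12 islet markers, 2 were detected in Reg2-high cells and 4 in Reg2-low cells. Gcg reached 1 TPM in 0 Reg2-high and 1 Reg2-low cell, Sst in 0 cells of both groups, Iapp in 0 Reg2-high and 1 Reg2-low cell, and Ins2 in 2 Reg2-high and 1 Reg2-low cell. Ttr, transthyretin, was the only islet marker detected widely, in 31 of 32 Reg2-high and 52 of 54 Reg2-low cells, at medians of 12.4 TPM in Reg2-high and 12.1 TPM in Reg2-low cells. Medians of the summed fibroblast, endothelial, macrophage, lymphocyte and erythrocyte markers were 0 in both groups. Cell 96, a Reg2-low cell, stood apart with 5 of 10 fibroblast markers. The number of genes detected per cell had a median of 4168 (3122 to 5032) in Reg2-high and 4068 (2624 to 5201) in Reg2-low cells. TPM keep no read depth, so detection could not be set to a common depth.

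With the cells chosen on Reg2, 4 other Reg genes differed by more than any of the 7221 genes outside the family, and Reg1 by less than some of them. Differences throughout are Reg2-high minus Reg2-low in mean log2(TPM + 1), so that 1 is about a doubling where a gene is well above 1 TPM and less where it is lower. Genes at 1 TPM or more in at least 11 cells (10%) of the series entered the comparison.

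Reg2 itself had 391.5 TPM as its lowest, 1313 as its median and 9527 as its highest value in Reg2-high cells, and 0, 12.51 and 49.75 TPM in Reg2-low cells. Reg3b, an antibacterial lectin and an acute-phase product of the inflamed pancreas, had 12.1, 233 and 1155 TPM in Reg2-high cells and 0, 5.51 and 93.2 TPM in Reg2-low cells, a difference of 5.07. The groups overlapped in Reg3b between 12.1 and 93.2 TPM. Reg3a had 6.23, 31.2 and 141 TPM in Reg2-high cells and 0, 0.17 and 8.71 TPM in Reg2-low cells, a difference of 4.38, with overlap between 6.23 and 8.71 TPM. Reg3g, another antibacterial lectin, had 0, 10.2 and 219 TPM in Reg2-high cells and 0, 0.71 and 29.8 TPM in Reg2-low cells, a difference of 2.94. Its ranges overlapped widely, since 1 Reg2-high cell was at 0.

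The more abundant members showed the smaller differences. Reg3d had 232, 403 and 985 TPM in Reg2-high cells and 60.5, 163 and 428 TPM in Reg2-low cells, a difference of 1.33. Reg1, the most abundant member and a pancreatic stone protein, had 8340, 18991 and 33813 TPM in Reg2-high cells and 3908, 9891 and 21599 TPM in Reg2-low cells, a difference of 0.94. Both ranges overlapped. Reg4, the only member outside the cluster on chromosome 6, lies on chromosome 3 and was listed at 0 in every Reg2-high and Reg2-low cell. The other 6 lie within 98.2 kb, chr6:78370657-78468872 in GRCm38. None of these Reg genes shares a stretch of 100 bases with another annotated gene, so reads of that length can be placed in 1 of them.

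Outside the Reg family, the groups were close to each other. Of 7221 genes, 2 (0.0277%) were higher by 1 or more in Reg2-high cells and 6 (0.0831%) were lower by 1 or more. At a difference of 0.5, 37 (0.512%) were higher and 35 (0.485%) lower. The median difference over all genes was 0.03, and its middle 50% ran from -0.08 to 0.12. The higher genes were Itih4 and Hspa1a. The lower genes were Mt2, Smim24, Gm12338, Snord118, Gm21738 and Gm10801.

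**Figure D2:**
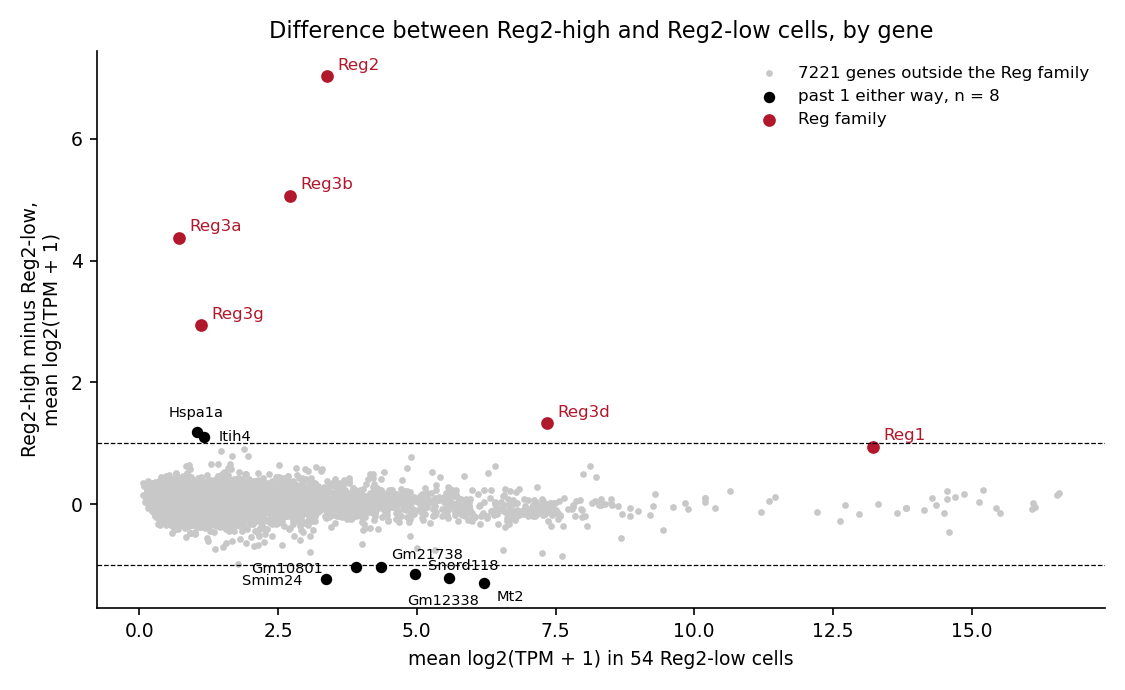
Difference in mean log2(TPM + 1), 32 Reg2-high minus 54 Reg2-low cells (vertical axis), against the mean log2(TPM + 1) in Reg2-low cells (horizontal axis), 1 point per gene. Dashed lines mark differences of 1 and -1; 8 genes outside the Reg family (black) lie past them, and Reg2, Reg3b, Reg3a and Reg3g (red) lie above all of those.

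Itih4 encodes a heavy chain of the inter-alpha-trypsin inhibitor family and is an acute-phase protein of the liver (chr14:30886476-30902353). It had 0, 3.69 and 23.1 TPM as lowest, median and highest value in Reg2-high cells, and 0, 1.15 and 6.92 TPM in Reg2-low cells, a difference of 1.11. It was detected in 28 of 32 Reg2-high cells (87.5%, exact 95% binomial interval 71 to 96.5%) and in 29 of 54 Reg2-low cells (53.7%, 39.6 to 67.4%), intervals that cover counting error over these cells only. Hspa1a, an inducible Hsp70 chaperone of the heat shock response (chr17:34969190-34972156), had 0, 3.83 and 54.4 TPM in Reg2-high cells and 0, 0 and 38.5 TPM in Reg2-low cells, a difference of 1.19. It was detected in 22 of 32 Reg2-high cells (68.8%, 50 to 83.9%) and in 17 of 54 Reg2-low cells (31.5%, 19.5 to 45.6%). Of the 100-base stretches of Hspa1a, 48.6% also occur in its near copy Hspa1b or in Hspa1l, so its level is uncertain by what the upstream step assigned to those genes. The groups overlapped in both genes: 8 of 32 Reg2-high cells lay above the highest Reg2-low cell in Itih4, and 1 of 32 did in Hspa1a.

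Read by cell pairs instead of by size, the order changed. The share of all pairs of 1 Reg2-high and 1 Reg2-low cell in which the Reg2-high cell has more does not depend on a pseudocount. It was 80% or more for 4 of the 7221 genes (0.0554%), which were named after their values were seen, and 20% or less for 0 genes. The first of these, Prss2, is an anionic trypsinogen and had 93229, 113921 and 122132 TPM in Reg2-high cells and 75200, 98052 and 119015 TPM in Reg2-low cells. The Reg2-high cell was higher in 85.5% of pairs, at a difference of only 0.19. Dmbt1, a secreted scavenger-receptor protein that binds bacteria, had 179, 362 and 569 TPM in Reg2-high cells and 74.1, 270 and 540 TPM in Reg2-low cells (82.9% of pairs, difference 0.50). Kdelr2, a receptor that returns escaped chaperones to the endoplasmic reticulum (ER), had 6.66, 12.8 and 26.02 TPM in Reg2-high cells and 3.56, 8.85 and 18.8 TPM in Reg2-low cells (81.5% of pairs, difference 0.55). Itih4 was the last, with 80.6%. Reg1, for scale, was higher in 92.2% of pairs.

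Among the lower genes, Smim24, which encodes a small membrane protein (chr10:81393051-81395392), had 0, 4.59 and 14.9 TPM in Reg2-high cells and 0, 7.89 and 63.97 TPM in Reg2-low cells, a difference of -1.22. Mt2, a metallothionein that binds zinc and copper, had 0, 36.6 and 399 TPM in Reg2-high cells and 0.8, 120 and 340 TPM in Reg2-low cells, a difference of -1.29. Its neighbour Mt1 had 20.6, 265 and 1268 TPM in Reg2-high cells and 35.7, 484 and 1681 TPM in Reg2-low cells, a difference of -0.56. The metallothioneins overlapped over nearly their whole range, and 4 Reg2-high and 0 Reg2-low cells were listed at 0 for Mt2. Mt2 followed cell number inside the Reg2-high group. The 14 Reg2-high cells 51 to 71 had 56.4, 209 and 399 TPM, and the 17 Reg2-high cells 72 to 91 had 0, 6.25 and 38.3 TPM, with no overlap, at a bound chosen after the values were seen. Against all Reg2-low cells Mt2 was thus higher by 1.27 in the first set and differed by -3.59 in the second, and Mt1 went the same way (0.78 and -1.77). For Itih4 (1.15 and 1.02), Hspa1a (1.37 and 1.17) and Smim24 (-1.13 and -1.39) the sets had the same sign. For Chac1 (-0.305 and 1.196) and Nupr1 (0.62 and -0.22), described below, the sets had opposite signs. Of the other 4 genes lower by 1 or more, Snord118 is a small nucleolar RNA and Gm12338, Gm21738 and Gm10801 are predicted genes.

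Cpe stood just short of a difference of -1, and Gal further from it. Cpe, carboxypeptidase E, which trims peptide hormone precursors, had 0, 0.56 and 4.65 TPM in Reg2-high cells and 0, 3.63 and 9.99 TPM in Reg2-low cells, a difference of -0.98. It was detected in 11 of 32 Reg2-high cells and 38 of 54 Reg2-low cells. Gal, the neuropeptide galanin, had 19.1, 55.3 and 157 TPM in Reg2-high cells and 29.7, 100.8 and 277 TPM in Reg2-low cells, a difference of -0.76. Cpe is also made by islet cells, whose markers are given above, and their part in this difference was not tested. Glutathione peroxidase Gpx1 had a median of 21.5 TPM in Reg2-high and 28.9 TPM in Reg2-low cells, a difference of -0.52.

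Because Reg2-high cells are nearly all from 1 run, each difference was also taken against the Reg2-low cells of each other run. Between the 31 Reg2-high cells of cells 49 to 91 and the 35 Reg2-low cells of cells 1 to 48, 6 genes (0.0831%) were higher by 1 or more and 8 (0.111%) lower. Against the 18 Reg2-low cells from 92 on, 29 (0.402%) were higher and 11 (0.152%) lower. These comparisons share the same Reg2-high cells. The 2 sets of Reg2-low cells, with Reg2 medians of 14.02 TPM (cells from 92 on) and 7.88 TPM (cells 1 to 48), also differed from each other: 20 genes (0.277%) were higher and 29 (0.402%) lower by 1 or more in the set from 92 on. Past 1 against both sets of Reg2-low cells were Itih4 and Hspa1a, both higher, and Mt2, Smim24, Gm12338 and Snord118, all lower.

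Within cells 49 to 91 the groups cannot be compared, as only 1 cell there is Reg2-low. A split at 300 TPM, chosen after the data were seen, set the 31 Reg2-high cells against the 9 other cells of that run, whose Reg2 had a median of 133 TPM (43.1 to 298). Here 4 genes (0.0554%) were higher and 19 (0.263%) lower by 1 or more, with 9 cells on one side. The median over all genes was -0.08, and 37.1% of genes were above 0. Of the 19 lists outside the Reg family, 13 had a median above 0 between the groups, and all 13 had one below 0 within the run. The Reg3 genes kept a difference: it was 2.15 for Reg3b and 1.41 for Reg3a, but 0.56 for Reg3g, 0.29 for Reg3d and 0.01 for Reg1.

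Outside the family, Itih4, Dmbt1 and Kdelr2 lay at about the same level in both sets of the run, and Hspa1a was lower in its Reg2-high cells. Itih4 had a median of 3.67 TPM in the 31 Reg2-high cells and 3.54 TPM in the 9 other cells of their run, against 1.03 TPM in Reg2-low cells 1 to 48 and 1.54 TPM in Reg2-low cells from 92 on. Dmbt1 had 363 TPM and 362 TPM in the same 2 sets of the run, against 273 and 257 TPM in Reg2-low cells 1 to 48 and from 92 on. For Kdelr2 the medians were 12.7 TPM in the Reg2-high cells of the run and 13.6 TPM in its other cells, against 9.5 and 6.67 TPM in the same sets of Reg2-low cells. Hspa1a had a median of 3.85 TPM in the Reg2-high cells of the run and 6.42 TPM in its other cells, against 0 TPM in both sets of Reg2-low cells. Within the run the difference was 0.19 for Itih4, 0.03 for Dmbt1, 0.04 for Kdelr2, 0.03 for Prss2 and -0.36 for Hspa1a. Smim24 (0.14) and Gal (0.28), both lower in Reg2-high than in Reg2-low cells, were not lower within the run. Mt2 (-1.497) and Mt1 (-0.79) were. Of the 9 other cells, though, 6 have numbers up to 71 and 3 have later ones, against 14 and 17 of the Reg2-high cells. Cpe (-0.93) was also lower within the run. Its medians were 0.53 and 0.51 TPM in the Reg2-high cells up to 71 and after. In the other cells up to 71 and after they were 4.82 and 0.48 TPM. Snord118 was higher by 2.03 in the Reg2-high cells of the run, the opposite of its difference between the groups.

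**Figure D3:**
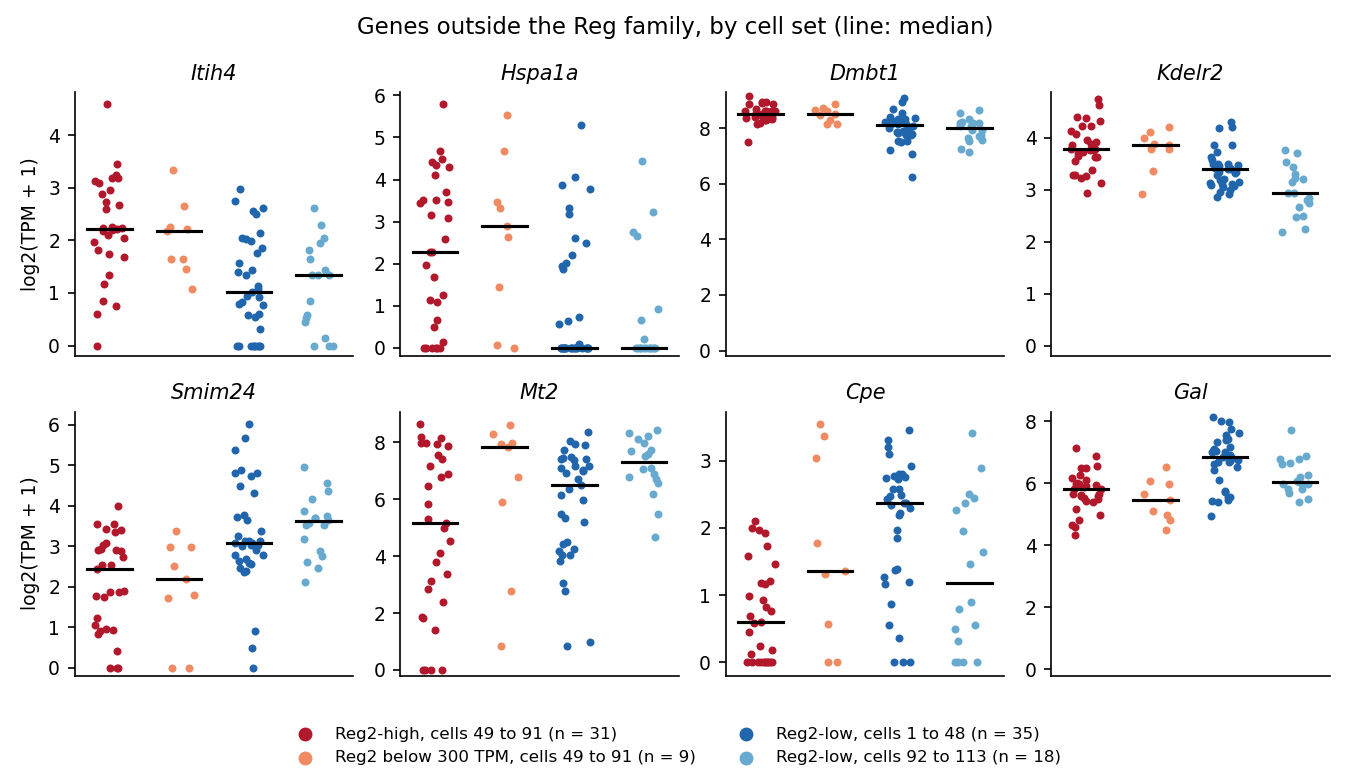
Level of 8 genes, log2(TPM + 1), in each cell of 4 sets, with the median as a line: Reg2-high cells of cells 49 to 91, the 9 cells of the same run below 300 TPM of Reg2, and Reg2-low cells of cells 1 to 48 and from cell 92 on. For Itih4, Dmbt1 and Kdelr2 both sets of cells 49 to 91 lie at the same height, with medians of 3.67 and 3.54, 363 and 362, and 12.7 and 13.6 TPM.

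Within cells 1 to 48 a similar split, at 50 TPM and also chosen after the data were seen, set 12 cells with a median Reg2 of 127 TPM against the 35 Reg2-low cells. Here 10 genes (0.138%) were higher and 3 (0.0415%) lower by 1 or more. Reg3b differed by 2.57, Reg3a by 1.39, Reg3g by 0.79, Reg1 by 0.63 and Reg3d by 0.59. Itih4 had a median of 3.16 TPM in the 12 cells and 1.03 TPM in the 35, a difference of 0.60. Dmbt1 had 311 and 273 TPM, a difference of 0.17. Cpe (0.20) and Gal (0.08), lower in Reg2-high than in Reg2-low cells, were not lower here. Vamp2, a SNARE protein of secretory vesicles, had similar differences in each: 0.46 between the groups, 0.50 within cells 49 to 91 and 0.49 within cells 1 to 48. Its medians were low, 1.29 TPM in Reg2-high and 0.42 TPM in Reg2-low cells. With a pseudocount of 10, its difference between the groups was 0.08. These comparisons share cells, and how many other genes behave like Vamp2 was not counted.

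The heat shock list, cytosolic and mitochondrial chaperones, had the highest median difference of the 19 lists outside the Reg family. Its median was 0.36 over 14 genes, beside 0.03 over all genes tested, and 13 members were above 0, beside 56.8% of all genes. Only Hspa1a was past 1. Hspa8, the constitutive Hsp70, had a median of 54.3 TPM in Reg2-high and 35.4 TPM in Reg2-low cells (difference 0.52), and its co-chaperone Dnaja1 had 7.74 and 4.76 TPM (0.64). The list's median stayed above 0 against Reg2-low cells of cells 1 to 48 (0.31) and from cell 92 on (0.45). The medians over all genes were -0.04 and 0.12 there. Within cells 49 to 91 the list's median was -0.28, beside -0.08 over all genes. Hspa8 had a median of 61.3 TPM and Dnaja1 12.4 TPM in the 9 cells of that run below 300 TPM of Reg2. Of the stretches of Hspa8, 28.2% are shared with other genes, most of them predicted genes.

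Immediate-early genes, transcription factors and feedback genes that respond within minutes to stimulation or handling, gave opposite signs by run. The median over 18 tested genes was 0.24 between the groups, with 0 past 1 and 16 above 0 (56.8% of all genes were). It was 0.47 against Reg2-low cells 1 to 48 and -0.53 against Reg2-low cells from 92 on, beside -0.04 and 0.12 over all genes. Within cells 49 to 91 it was -0.35, beside -0.08 over all genes. Fos had a median of 17.5 TPM in Reg2-high cells, against 12.4 TPM in Reg2-low cells 1 to 48 and 58.5 TPM in Reg2-low cells from 92 on. Junb had 5.34 TPM in Reg2-high cells, against 0.95 and 7.55 TPM in the same 2 sets. Egr1 had 4.11 TPM, against 2.14 and 18.5 TPM.

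ER chaperones and unfolded protein response genes, which fold the secreted enzymes, were somewhat higher in Reg2-high than in Reg2-low cells. Their median was slightly below 0 within cells 49 to 91. The median over 29 tested genes was 0.17, with 26 above 0 (56.8% of all genes were), 6 past 0.5 (0.512% of all genes were) and 0 past 1. Within cells 49 to 91, split at 300 TPM, it was -0.03, with 13 above and 16 below 0. Over all genes the median of that split was -0.08, with 37.1% above 0. Hspa5, the main ER chaperone, had 59.1, 117 and 313 TPM in Reg2-high cells and 24.6, 87.1 and 256 TPM in Reg2-low cells, a difference of 0.62. Creld2, an ER stress-inducible folding factor, had 14.3, 54.8 and 102.3 TPM in Reg2-high cells and 2.72, 31.4 and 92.8 TPM in Reg2-low cells, a difference of 0.77. These differences were larger against the Reg2-low cells from cell 92 on, all with short totals. Hspa5 had a median of 102.4 TPM in Reg2-low cells 1 to 48 and 50.0 TPM in Reg2-low cells from 92 on, and Creld2 had 35.7 and 15.6 TPM. The list's median was 0.03 against the first set and 0.54 against the second, beside -0.04 and 0.12 over all genes. Of the 29 members, 9 were higher by 1 or more than in the second set, beside 0.402% of all genes. Genes of amino acid synthesis and transport went the same way, with a median of 0.18 over 21 genes that was -0.05 against the first set and 0.46 against the second. With each cell rescaled to its own total, the difference between the groups was 0.59 for Hspa5 and 0.74 for Creld2. With Reg2-high cells 49 to 71 alone against all Reg2-low cells, it was 0.04 for Hspa5 and 0.29 for Creld2.

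The integrated stress response list, targets of ATF4, had a median of 0.20 over 16 genes, with 14 above 0 (56.8% of all genes were) and only Chac1 past 0.5. Chac1, a glutathione-degrading enzyme, had a median of 14.9 TPM in Reg2-high and 8.52 TPM in Reg2-low cells, a difference of 0.61. Nupr1, a stress-induced nuclear protein abundant in acinar cells, had 360, 732 and 1668 TPM in Reg2-high cells and 231, 647 and 1135 TPM in Reg2-low cells, a difference of 0.17. The list's median was 0.09 against Reg2-low cells 1 to 48 and 0.28 against those from 92 on. Over all genes the medians there were -0.04 and 0.12. Within cells 49 to 91 the list's median was -0.14, beside -0.08 over all genes. In the same order, Chac1 differed by 0.30, 1.04 and -0.13, and Nupr1 by 0.31, -0.14 and -0.175.

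Genes of the IL-6 family pathway, which controls Reg genes in injury, showed little. Of 20 listed, 11 were detected widely enough, 0 passed 0.5, and their median difference was 0.10 with 10 above 0 (56.8% of all genes were). Stat3 had a median of 1.91 TPM in Reg2-high and 1.43 TPM in Reg2-low cells (difference 0.27). Socs3, a feedback inhibitor and STAT3 target, had 0.48 and 0.09 TPM (0.47) and was detected in 10 of 32 Reg2-high and 11 of 54 Reg2-low cells. The median over the list was -0.04 against Reg2-low cells 1 to 48, the same as over all genes. Of 25 acute-phase and injury genes, only 6 were tested, with a median of 0.12 and 0 past 0.5. Saa1, Saa2, Saa3, Hp and Orm1, acute-phase genes of the liver, were among those not tested, with medians of 0 TPM in Reg2-high and in Reg2-low cells. Interferon response and MHC class I genes had a median of 0.17 over 12 of 29 listed genes and 0 past 0.5, with Ifitm3 at a median of 23.6 TPM in Reg2-high and 17.8 TPM in Reg2-low cells.

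The secretory programme of the acinar cell differed little. Over 40 of 42 digestive enzymes and granule proteins the median was -0.03. Of these, 16 were above and 24 below 0, beside 56.8% above 0 over all genes. The median was 0.13 when cells were rescaled without these genes and Reg genes. Only Cela3a, a low-abundance elastase, was past 0.5 (-0.52). The list's summed level had a median of 884583 TPM in Reg2-high and 872902 TPM in Reg2-low cells. Amy2a1, an amylase, had a median of 76600 TPM in Reg2-high and 78782 TPM in Reg2-low cells, but 94.6% of its stretches are shared with other amylase copies. Over 13 acinar transcription factors the median was -0.04, and none passed 0.5. Ptf1a, the master regulator of acinar identity, had a median of 12.5 TPM in Reg2-high and 10.4 TPM in Reg2-low cells, and Bhlha15 (Mist1), which drives granule maturation, had 11.5 and 14.2 TPM. Their differences were 0.34 and -0.23. Against Reg2-low cells 1 to 48 they were 0.09 and -0.41, and against those from 92 on they were 0.84 and 0.09. Within cells 49 to 91, split at 300 TPM, they were 0.17 and 0.09.

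Of the remaining lists, ribosomal proteins had a median of -0.12 over 38 genes, with 32 below 0 (3121 of all 7221 genes were). It was -0.17 against Reg2-low cells 1 to 48 and -0.03 against those from 92 on, beside -0.04 and 0.12 over all genes. Within cells 49 to 91, split at 300 TPM, it was -0.19, beside -0.08 over all genes. When cells were rescaled without Reg genes and digestive enzymes, it was 0.04 between the groups. The median was -0.02 over 40 respiratory chain genes, 0.05 over 17 cholesterol and fatty acid synthesis genes, 0.06 over 25 autophagy and lysosome genes, and 0.02 over 16 genes of secretagogue response and exocytosis. It was -0.01 over 9 circadian clock genes, 0.10 over 9 genes of the fasting and glucocorticoid response, 0.01 over 18 metallothionein and antioxidant genes, and -0.09 over 8 proliferation genes. Over these 9 lists, Mt2, which is in the fasting list and in the metallothionein list, was the only member past 1.

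**Figure D4:**
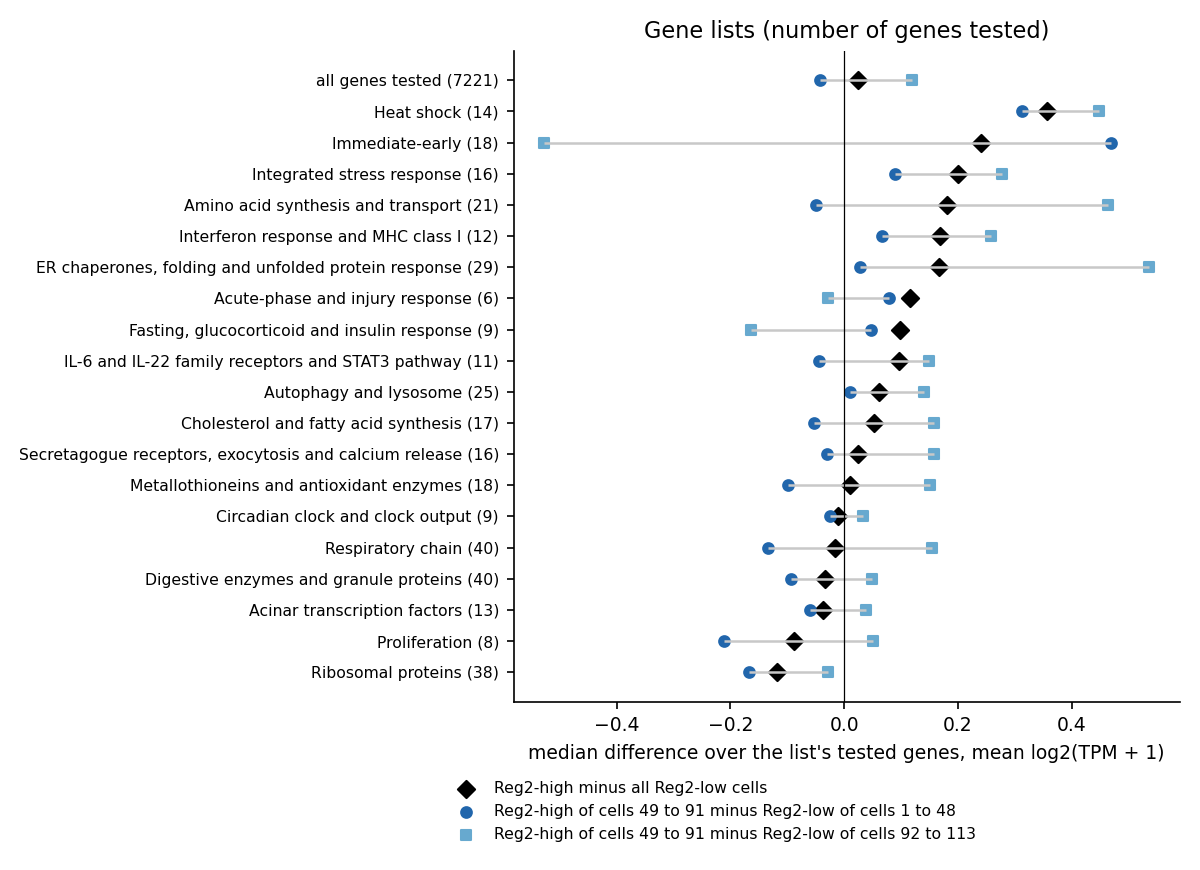
Median difference in mean log2(TPM + 1) over the tested genes of each list (number in brackets): Reg2-high cells minus all Reg2-low cells (diamonds), and Reg2-high cells of cells 49 to 91 minus Reg2-low cells of cells 1 to 48 (circles) or from cell 92 on (squares). The squares and circles lie far apart for immediate-early genes (-0.53 and 0.47) and for ER chaperones (0.54 and 0.03), and close together for heat shock genes (0.45 and 0.31).

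Cell to cell within a run, with no threshold on Reg2, Reg3a, Reg3b and Reg3d had a higher lower value of the 2 runs' correlations with Reg2 than any gene outside the family. In a single run some genes outside it, such as Klk1b4, reached more than Reg3d. Spearman's correlation with Reg2 over the 47 cells of cells 1 to 48 and the 40 cells of cells 49 to 91 was 0.54 and 0.50 for Reg3b, 0.50 and 0.50 for Reg3a, 0.43 and 0.42 for Reg3d, 0.49 and 0.25 for Reg1, and 0.16 and 0.42 for Reg3g. Over the 21 cells from 92 on it was lower for the Reg3 genes: 0.18 for Reg3b, 0.12 for Reg3a, 0.22 for Reg3d and 0.13 for Reg3g. For Reg1 it was 0.45 there. These are descriptions over cells that share a run, and TPM in 1 cell depend on each other because they sum to a fixed total. Of the 7221 other genes, 5 had a correlation of 0.3 or more in both runs and 6 had -0.3 or less in both, while 4.29% reached 0.3 in cells 1 to 48 and 1.56% in cells 49 to 91. The highest lower value was that of Aaas, a nuclear pore protein gene at a median of 0.88 TPM in Reg2-high and 0.51 TPM in Reg2-low cells, with 0.41 and 0.39. At such low levels a rank correlation over cells is no finding.

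The next genes by this measure were Vps36, Rhbdd3, Klk1b4 and Mrpl21. Klk1b4, a kallikrein-family gene, was the most abundant of these 4, with 11.1, 24.0 and 87.9 TPM in Reg2-high cells and 3.34, 16.4 and 52.1 TPM in Reg2-low cells, a difference of 0.50 and a correlation of 0.31 and 0.48. Over the cells from 92 on, the correlation of Klk1b4 with Reg2 was -0.44. For the genes that led the group difference, the correlation was 0.24 and -0.13 for Itih4, 0.11 and -0.08 for Hspa1a, 0.28 and 0.13 for Dmbt1, -0.17 and -0.01 for Smim24, and -0.13 and -0.17 for Mt2. The rank correlation between Reg2 and the number of genes detected was 0.16 in cells 1 to 48 and -0.23 in cells 49 to 91.

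**Figure D5:**
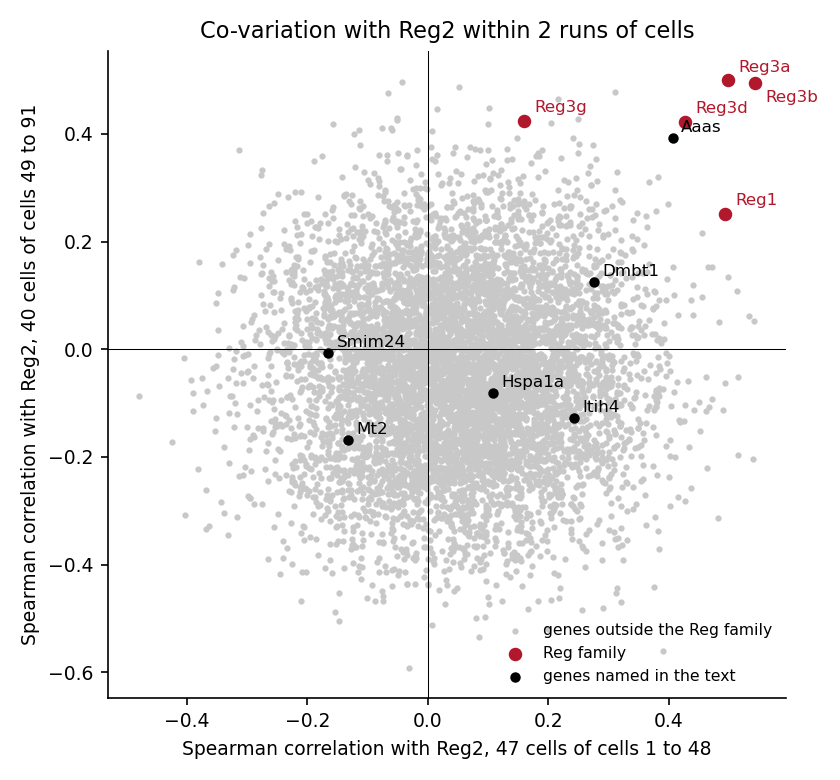
Spearman's correlation of each gene with Reg2 over the 40 cells of cells 49 to 91 (vertical axis) and over the 47 cells of cells 1 to 48 (horizontal axis), 1 point per gene. Reg3a and Reg3b lie at about 0.5 on both axes at the upper right edge, whereas Itih4, Hspa1a, Smim24 and Mt2 (black) lie within the cloud of other genes.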

How the data were processed

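Each of the 108 samples was 1 acinar cell, and the labels put them all in 1 group. The deposited table held TPM for 45195 gene rows, computed by the authors and rounded to 2 decimals. The tools listed per the submitters' processing notes are STAR 2.4.2a, RSEM 1.2.21 and edgeR, on mm10, without their roles, and RSEM can split reads among near-identical genes. TPM keep no read depth, so depth is unknown. All cell columns were used, and 44548 rows were matched to symbols. Per the labels' protocols, 24 cells carried spike-in RNA. Cells were grouped by Reg2, genes were filtered at 1 TPM in at least 10% of cells (11 cells), and group means of log2(TPM + 1) were subtracted. No test was run, and the functions were tested on simulated data. Detection intervals are exact (Clopper-Pearson, 95%). No cell was left out and no doublet caller was run.

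Members, lists and rules were chosen with earlier results of these data known. Named genes were the 15 highest and 15 lowest differences among genes in at least 25% of the compared cells (leaving out predicted, pseudogene, micro and small nucleolar RNA symbols), up to 3 genes per list, the 8 genes that followed Reg2 best in both runs, Reg genes, Nupr1, Nnt, Ptf1a, Hspa5, Fos, Prss2 and Amy2a1. Other genes were named after their values were seen. A further part of the rule, within cells 49 to 91, gave no gene because 1 of the groups has 1 cell there. Gene positions are from GENCODE on GRCm38, the same assembly as mm10, and promoters from RefSeq, with an entry for 12 of 14 genes looked up. Python 3.11.15, pandas 2.3.3, numpy 2.4.6 and scipy 1.17.1 were used. Alternatives were other pseudocounts, filters, scalings, thresholds and run bounds, medians in place of means, and leaving out cells.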

Additional observations from a re-analysis of the deposited data

How the results depend on the processing

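With 1 sample and no depth, every value here is a description of these cells. The numbers of genes higher and lower by 1 or more, 2 and 6, were 2 and 6 without the filter on low values, with rescaling to each cell's own total and with median-of-ratios scaling. Rescaling without Reg genes and digestive enzymes moved the median of all genes to 0.10, with 2 higher and 4 lower. The counts moved by more than 1.5 times to 43 and 33 with a pseudocount of 0.1, to 0 and 0 with a pseudocount of 10 (2 and 10 at a difference of 0.5), to 8 and 12 with medians of log2 values, to 1 and 3 with all cells split at 120 TPM, and to 37 and 35 at a difference of 0.5. The higher count was 1 with thresholds of 600 and 25 TPM, 7 with cells 1 to 91 alone and 7 with Reg2-low cells of cells 1 to 48 alone. With Reg2-low cells from 92 on alone the counts were 28 and 10. Within cells 49 to 91 the lower count was 7 with the bound set at 43, beside 19. Between the 2 sets of Reg2-low cells the lower count was 15 with median-of-ratios scaling, beside 29. With a bound at 53, 3 genes followed Reg2 in both runs, beside 5. Within cells 49 to 91, split at 300 TPM, list medians moved to 0.56 for the Reg family, -0.16 for the IL-6 and STAT3 pathway, -0.28 for heat shock, -0.14 for the integrated stress response and -0.20 for cholesterol synthesis. Other lists also turned below 0 there: immediate-early (-0.35), fasting (-0.30), autophagy (-0.16), interferon (-0.12), acute-phase (-0.10), amino acid (-0.10) and ER chaperone genes (-0.03), beside a median of -0.08 over all genes. With Reg2-high cells 49 to 71 alone the counts were 15 and 18, and the difference of Mt2 was 1.27, beside -1.29; with Reg2-high cells 72 to 91 alone the higher count was 10. Of 1602 recomputed gene differences (89 genes), 1573 moved by less than 1 SD over Reg2-low cells and 28 by more, and that of Mt2 was the only one of 1 or more to change sign. This SD is the spread between single cells, so it is a wide measure. Fos, with an SD of 2.24, stayed within it although it went from 0.49 to -1.34 with Reg2-low cells from 92 on alone. Sign changes of differences below 1, like that of Fos, are not in this count of sign changes. The cause of these moves was not tested. No paired analysis was possible because the cells form 1 group with no replicate numbers shared between groups. The planned comparison by both thresholds within each run gave no value, since 1 of the groups had at most 1 cell in each run. The within-run splits, the bound at 71 and the other bounds were chosen after seeing the data.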

Other observations

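The 22 cells between the thresholds were left out of the comparison of Reg2-high with Reg2-low cells. Those among cells 1 to 91 entered the within-run splits, and all entered the correlations within runs and the split at 120 TPM. Reg2 in these 22 cells had 53.95, 127 and 298 TPM as lowest, median and highest value. Among the other Reg genes, Reg3b had a median of 43.7 TPM (0 to 498), Reg3a 5.18 TPM (0 to 56.7), Reg3g 3.73 TPM (0 to 76.9), Reg3d 290.4 TPM (133 to 515) and Reg1 17060 TPM (9145 to 26420). Each of these medians lies between those of Reg2-high and Reg2-low cells. The same holds for Itih4 with 2.59 TPM, Hspa1a with 2.49 TPM, Dmbt1 with 325 TPM, Kdelr2 with 9.27 TPM, Smim24 with 6.19 TPM and Gal with 91.1 TPM. It does not hold for Dnaja1 with 4.37 TPM, Chac1 with 15.0 TPM, Nupr1 with 737 TPM, Ptf1a with 10.3 TPM and Fos with 11.1 TPM. Of these 22 cells, 11 are among cells 1 to 48, 8 among cells 49 to 91 and 3 from cell 92 on, so their medians mix the runs.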
